A study of Mus musculus with 17 samples.

Results

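The 8 genes Il1a, Il1b, Il1rn, Il1r1, Il1r2, Il18, Nlrp3 and Casp1 were followed in mouse lung after focal irradiation. They were chosen by gene symbol as ligands, receptors and processing enzymes of the interleukin-1 (IL-1) family, and they are 8 of the 45777 genes in the count table. All 8 had enough counts to be tested, as did 22052 genes in all. The lungs came from male wild-type C57BL/6 mice, obtained at the age of 6 weeks, whose left lung had received a single focal dose of 65 Gy or 75 Gy or which had not been irradiated. Lungs were taken after 2 weeks, which the study treats as the inflammation stage, or after 6 weeks, the fibrosis stage. Each of the 6 groups of dose and time had 3 libraries of messenger RNA, except 65 Gy at 6 weeks, for which 2 were analysed here. Libraries are named by the numbers of their labels, 3126 to 3128 for control, 3129 to 3131 for 65 Gy and 3132 to 3134 for 75 Gy at 2 weeks, and 3135 to 3137 for control, 3138 and 3140 for 65 Gy and 3141 to 3143 for 75 Gy at 6 weeks. RNA of irradiated mice was taken from the lesions, so a group differs from its control in the tissue sampled as well as in dose. The sources do not state that each library is a separate mouse, and the p-values then measure only the spread between these libraries.

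IL-1α and IL-1β, encoded by Il1a and Il1b, bind the same signalling receptor, IL-1R1, and start nuclear factor kappa B (NF-κB) signalling through the adaptor MyD88. Il1rn encodes the receptor antagonist, which occupies the receptor without signalling, and Il1r2 encodes a decoy receptor. IL-1β and IL-18 are made as inactive precursors that caspase-1 cleaves once a sensor such as NLRP3 has assembled an inflammasome, so their messenger RNA levels do not measure the active cytokines. In the lung, macrophages, monocytes and neutrophils are sources of IL-1.

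Between 46764569 and 66797879 reads were counted on genes per library, with a median of 57608149. Markers of lung epithelium were abundant in all 17 libraries, with summed levels of 22290 to 47650 CPM, the count of a gene scaled to the effective size of its library. No marker in 15 lists for cell types was at 0 in all libraries. Among the controls, library 3126 had the highest summed level of alveolar macrophage markers (1413 CPM against 683.7 to 848.5 CPM in the other 5) and library 3135 the highest of neutrophil markers (919.6 CPM against 530 to 783.4 CPM). Library 3134 of 75 Gy at 2 weeks had the highest level of tissue macrophage markers, at 2685 CPM, against 1129 to 1633 CPM in the other 10 irradiated libraries. These 3 libraries were chosen after seeing the data, and results that rest on them are also given without them. Other libraries stood apart in other lists. Control library 3137 had 632.9 CPM of cardiac muscle markers, against 196.1 to 402.9 CPM in the other controls. Library 3129 had 110.7 CPM of adipocyte markers, against 13.25 and 13.51 CPM in the other 65 Gy libraries of 2 weeks. In whole tissue, fewer cells of a type and less RNA per cell cannot be told apart.

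The genes of the 3 ligands of IL-1R1 lie on chromosome 2 of GRCm38.p6, Il1a at 129299609 to 129310186 and Il1b at 129364569 to 129371164 on the minus strand, and Il1rn at 24336860 to 24351491 on the plus strand. Stretches before their start sites are shown because Il1a and Il1rn each rose in at least 1 comparison at each time and Il1b in none. RefSeq sequence of the 250 bases upstream of each start was searched on both strands for the TATA box (TATAAA), the AP-1 motif (TGANTCA), the NF-κB motif (GGG and CC with any 5 bases between them), the interferon regulatory factor motif (GAAA 2 times, with any 2 bases between) and the STAT motif (TTCNNNGAA). Matches are in capitals. Start sites are those of the RefSeq promoter table. The gene spans above include longer transcript models of RefSeq, so the printed Il1a stretch lies inside the span of its gene and the Il1b stretch partly so. The first 2 sequences cover the 34th to the 5th base before the start, at chr2:129309977-129310006 and chr2:129371144-129371173 on the minus strand, and the last covers 250 bases at chr2:24336610-24336859 on the plus strand:
Il1a: acTATAAAaaggcagagaagccTGACTCAg
Il1b: gacTATAAAacaagggagggaaaacaagtt
Il1rn: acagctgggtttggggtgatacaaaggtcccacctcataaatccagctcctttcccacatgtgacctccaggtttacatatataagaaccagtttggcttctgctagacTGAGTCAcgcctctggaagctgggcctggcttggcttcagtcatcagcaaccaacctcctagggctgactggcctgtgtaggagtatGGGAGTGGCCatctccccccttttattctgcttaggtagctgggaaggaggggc
Il1a and Il1b each had a TATA box, first base 32 and 31 bases before the start. Il1a also had an AP-1 match 12 bases before the start, and this Il1rn window had an AP-1 match 141 bases and an NF-κB match 54 bases before it. Neither motif was found in the 250 bases before Il1b. The table lists 3 start sites for Il1rn. The second had none of the matches and the third an NF-κB match. Of 32851 such windows over all genes, 12.4% held the TATA box, 6.75% the AP-1 motif, 45.8% the NF-κB motif, 2.98% the interferon regulatory factor motif and 7.02% the STAT motif. The other members were searched in the same way. Il1r1 and Nlrp3, which rose in no comparison, each had an NF-κB match at 1 of 2 listed start sites. Casp1, which rose at the later time, had an NF-κB match and no AP-1 match. No AP-1 match was found before Il1r1, Nlrp3, Il1r2 or Il18 either. Il1r2 had a STAT match and Il18 a TATA box on the opposite strand, and neither had an NF-κB match. Il1a had no NF-κB match either, and no window of the members held the interferon regulatory factor motif. A match describes letters in the window and not binding, and whether matches go with the changes in level was not tested.

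**Figure D1:**
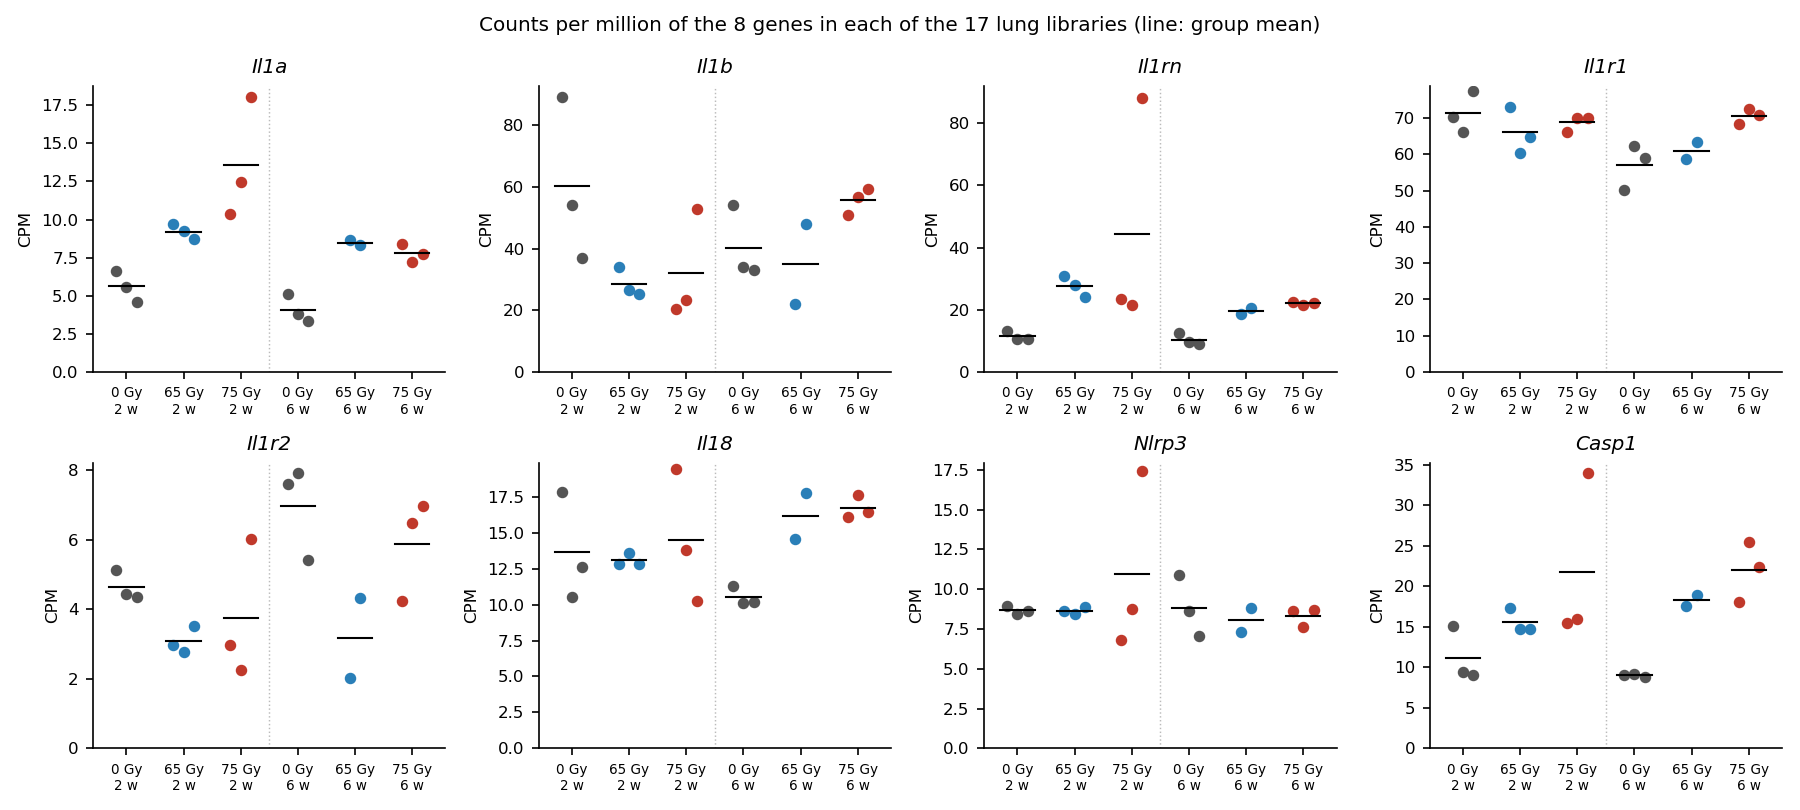
CPM (vertical axis, from 0) of the 8 genes in each of the 17 libraries, 1 point per library, by dose and time. Lines are group means. Il1a and Il1rn lie above the controls of the same time in all 11 irradiated libraries, while Il1b, Il1r1, Il1r2 and Nlrp3 do not, and library 3134 is the highest point of 75 Gy at 2 weeks for Il1rn (88.0 CPM), Nlrp3 (17.4 CPM) and Casp1 (34.1 CPM).

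A gene is described as having risen or fallen when its Benjamini-Hochberg adjusted p was at most 0.05 in edgeR's quasi-likelihood test and its absolute log2 fold change was at least 1. At 2 weeks, Il1rn rose after 65 Gy, 1 of 8 members, and Il1a and Il1rn after 75 Gy, 2 of 8. At 6 weeks, Il1a and Casp1 rose after 65 Gy and Il1rn and Casp1 after 75 Gy, 2 of 8 each. Of all genes tested, 3.47%, 5.67%, 4.34% and 7.28% rose in these comparisons, in the same order, and 4.35%, 7.74%, 5.28% and 10.4% passed in either direction. By edgeR 0 members fell, where 0.880%, 2.07%, 0.943% and 3.13% of all genes did. At an unadjusted p under 0.05, Il1b was lower after both doses at 2 weeks and Il1r2 after 65 Gy at 6 weeks, DESeq2 called the last of these, and edgeR's exact test called it and Il1b after 65 Gy at 2 weeks. Without libraries 3126, 3134 and 3135, an alternative chosen after seeing the data, 1, 3, 4 and 3 members passed, among them Il1b at 2 weeks after 75 Gy and Il1r2 at 6 weeks after 65 Gy, both lower. By adjusted p alone, 2, 3, 2 and 5 of the 8 passed in these comparisons, where 11.0%, 22.3%, 14.7% and 36.0% of all genes did. The median log2 fold change of the 8 was -0.03, 0.21, 0.36 and 0.57, and that of all genes tested -0.008, 0.001, 0.008 and 0.04. Every irradiated library lay above every control for 2, 3, 4 and 5 of the 8 genes, a separation that 15.9%, 15.5%, 28.2% and 29.4% of all genes showed, and lay below every control for 2, 0, 1 and 0, as 13.5%, 14.8%, 28.1% and 27.7% of all genes did. The comparisons of both doses at a time share their controls.

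Il1a, an alarmin released from damaged cells, was higher in irradiated lungs in all 4 comparisons and passed both limits in 2 of them. Control lungs of 2 weeks held 6.64, 5.59 and 4.62 CPM, 65 Gy-irradiated lungs 9.70, 9.21 and 8.69 CPM, and 75 Gy-irradiated lungs 10.3, 12.4 and 18.0 CPM. At 6 weeks, controls held 5.11, 3.80 and 3.33 CPM, 65 Gy lungs 8.66 and 8.30 CPM, and 75 Gy lungs 8.40, 7.24 and 7.72 CPM. All irradiated libraries lay above the controls of their time, and at 2 weeks the libraries of 75 Gy also lay above those of 65 Gy. At 2 weeks the log2 fold change was 0.71 after 65 Gy (SE 0.20, adjusted p = 0.0308), under the fold limit, and 1.28 after 75 Gy (SE 0.20, adjusted p = 0.000486), by the quasi-likelihood test of edgeR, adjusted as above. At 6 weeks the same test gave 1.05 after 65 Gy (SE 0.22, adjusted p = 0.00561) and 0.93 after 75 Gy (SE 0.20, adjusted p = 0.00238). The rise after 65 Gy at 6 weeks no longer passed without library 3137 or 3138, and without control library 3135 the 75 Gy comparison at 6 weeks passed, at 1.13. Over all fits with 1 library left out, the log2 fold change of 75 Gy at 2 weeks ranged from 1.02 (without 3134) to 1.43.

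Il1b did not follow Il1a. At 2 weeks, controls held 89.4, 54.1 and 37.1 CPM, 65 Gy lungs 34.1, 26.6 and 25.2 CPM, and 75 Gy lungs 20.5, 23.4 and 52.8 CPM. The 65 Gy libraries all lay below the controls, and 2 of the 75 Gy libraries did, with 3134 among the controls. At 6 weeks, controls held 54.0, 33.9 and 33.1 CPM, 65 Gy lungs 22.2 and 47.8 CPM, and 75 Gy lungs 50.8, 56.9 and 59.3 CPM, and the groups overlapped. The log2 fold change at 2 weeks was -1.07 after 65 Gy (SE 0.38, adjusted p = 0.0819) and -0.90 after 75 Gy (SE 0.38, adjusted p = 0.0989) in edgeR's quasi-likelihood test. At 6 weeks it was -0.21 (95% interval -1.10 to 0.69) and 0.46 (-0.33 to 1.26), and neither passed the test. Without library 3134 both 2-week comparisons passed both limits, at -1.07 after 65 Gy (adjusted p = 0.028) and -1.45 after 75 Gy (adjusted p = 0.0136) by the same edgeR test. Without control library 3126 they were -0.67 and -0.49. The overlapping gene Il1bos, antisense to Il1b, was at 0.191 to 0.619 CPM, and whether the counting used strand is not stated.

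Markers of neutrophils, a known source of IL-1β, moved in the irradiated libraries beside Il1b. The summed level of the 12 neutrophil markers lay between 530 and 919.6 CPM in the 6 controls and between 175.3 and 410.6 CPM in the 11 irradiated libraries, without overlap. Of the 12, 8 fell after each dose at 2 weeks, 3 after 65 Gy and 6 after 75 Gy at 6 weeks, and none rose. Estimates of 2 of the 12 were above 0 after each dose at 2 weeks, and of 0 and 1 at 6 weeks. After 65 Gy at 2 weeks Ltf lay above every control, at 28.2 to 63.2 CPM against 7.40 to 26.6 CPM. In 75 Gy lungs of 6 weeks the markers lay at 290.4 to 395.6 CPM, under all controls, while Il1b lay at 50.8 to 59.3 CPM, against 33.1 to 54.0 CPM in the controls. Their part in the levels of Il1b was not tested.

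Il1rn, the receptor antagonist, rose in 3 of the 4 comparisons. At 2 weeks, controls held 13.3, 10.5 and 10.4 CPM, 65 Gy lungs 30.8, 27.9 and 24.1 CPM, and 75 Gy lungs 23.3, 21.6 and 88.0 CPM. In lungs of 6 weeks, controls held 12.4, 9.47 and 8.97 CPM, 65 Gy lungs 18.6 and 20.7 CPM, and 75 Gy lungs 22.5, 21.6 and 22.0 CPM. No irradiated library overlapped the controls of its time, and library 3134 stood far above the other 75 Gy libraries. By edgeR's quasi-likelihood test, the log2 fold change at 2 weeks was 1.27 after 65 Gy (SE 0.39, adjusted p = 0.0469) and 1.96 after 75 Gy (SE 0.39, adjusted p = 0.00264). At 6 weeks it was 0.93 after 65 Gy (SE 0.42, adjusted p = 0.154) and 1.10 after 75 Gy (SE 0.39, adjusted p = 0.0374) by the same edgeR test. Without library 3134, the value of 75 Gy at 2 weeks was 0.98, with an adjusted p of 0.000514 in edgeR's test but under the fold limit. A fit of 75 Gy and control libraries of 2 weeks alone also lost it, with an adjusted p of 0.0717 in edgeR's test. The rise after 65 Gy at 2 weeks rested close to the limit and passed without 3132, 3133 or 3134 but in none of the other 14 fits with 1 library left out, where its adjusted p reached 0.133 in edgeR's test. The rise after 75 Gy at 6 weeks was lost without any 1 of the 6 libraries compared, where it reached an adjusted p of 0.108.

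Within a library, the ratio of Il1rn to Il1b counts sets the antagonist against an agonist and does not depend on the scaling of libraries. The ratio was 0.149, 0.195 and 0.282 in controls of 2 weeks, 0.903, 1.05 and 0.954 after 65 Gy and 1.14, 0.924 and 1.67 after 75 Gy. At 6 weeks it was 0.23, 0.28 and 0.271 in controls, 0.839 and 0.433 after 65 Gy and 0.442, 0.38 and 0.371 after 75 Gy. The ratio was higher in all 11 irradiated libraries than in each control of the same time. Irradiated libraries exceeded controls by 1.64 on the log2 scale, 2.42 at 2 weeks and 0.85 at 6 weeks (two-sided exact permutation test within times, p = 0.000213, the smallest that 4704 arrangements allow, 0.000638 adjusted over 3 ratios). With any 1 library left out, the difference lay between 1.53 and 1.76. Counts of the 2 genes were not divided by their lengths, so a ratio of 1 does not stand for equal numbers of transcripts. The result covers Il1b alone. Il1a, the gene of the other agonist, was also higher in all 11 irradiated libraries than in the controls of the same time. The ratio of Il1rn to Il1a was not tested, so a shift against both agonists was not shown.

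**Figure D2:**
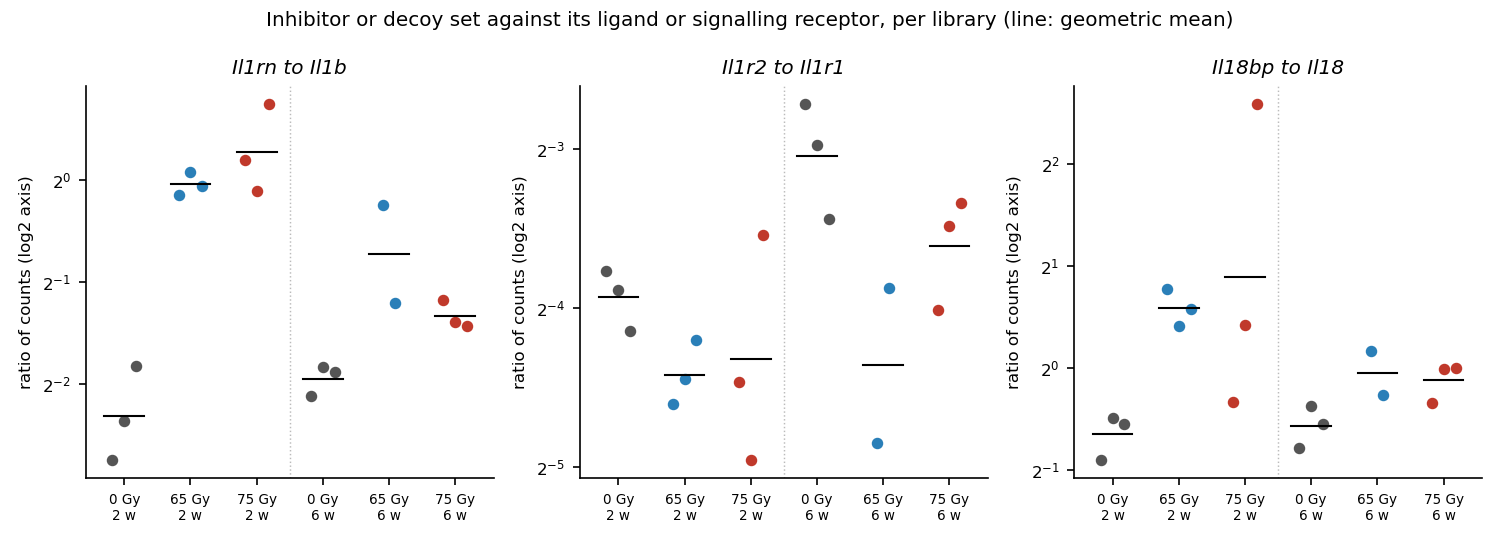
Ratio of the counts of an inhibitor or decoy to those of its ligand or signalling receptor in each of the 17 libraries (log2 vertical axis), by dose and time, with the geometric mean of each group as a line. The ratio of Il1rn to Il1b lies between 0.149 and 0.282 in the 6 controls and between 0.371 and 1.67 in the 11 irradiated libraries.

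Il1r1, which encodes the signalling receptor, stayed within a narrow range and did not pass the fold limit in any comparison. It lay between 50.1 and 77.5 CPM in controls, between 58.7 and 73.0 CPM after 65 Gy and between 66.2 and 72.5 CPM after 75 Gy. Its largest log2 difference from control was 0.31, after 75 Gy at 6 weeks (SE 0.09, adjusted p = 0.0201 in edgeR's quasi-likelihood test), with all 3 irradiated libraries above the controls. Without control library 3135 it was 0.22, and its adjusted p was 0.104 then and 0.056 without library 3142 in edgeR's test. In the other comparisons with controls, the 95% intervals of the log2 fold change reached from -0.31 to 0.32. Controls of 6 weeks were lower than those of 2 weeks by 0.32 on the log2 scale, in all 3 libraries (unadjusted p = 0.00401, adjusted p = 0.114, edgeR). Il1rap, the accessory chain of the receptor, lay between 25.7 and 36.9 CPM in all libraries.

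Il1r2, the decoy receptor, was the lowest of the 3 receptor chains in counts. Controls of 2 weeks held 5.14, 4.45 and 4.37 CPM, 65 Gy lungs 2.99, 2.76 and 3.51 CPM, and 75 Gy lungs 2.98, 2.25 and 6.02 CPM. In lungs of 6 weeks, controls held 7.62, 7.93 and 5.41 CPM, 65 Gy lungs 2.03 and 4.32 CPM, and 75 Gy lungs 4.23, 6.48 and 6.98 CPM. Libraries of 65 Gy lay below the controls at both times, and those of 75 Gy overlapped them. The log2 fold changes after 65 Gy were -0.59 at 2 weeks (SE 0.33, adjusted p = 0.29) and -1.14 at 6 weeks (SE 0.38, adjusted p = 0.0571) in edgeR's quasi-likelihood test, and after 75 Gy -0.32 and -0.25, none past the test. The 6-week value of 65 Gy passed by edgeR's exact test, by DESeq2, with the other groups kept out of the fit, and without library 3133, 3134 or 3140. It was -1.77 without 3140 and -0.68 without 3138. The ratio of Il1r2 to Il1r1 counts was lower in irradiated than in control libraries by 0.65 on the log2 scale, 0.0653 against 0.0467 and 0.0499 at 2 weeks and 0.121 against 0.0486 and 0.0817 at 6 weeks as geometric means of control, 65 Gy and 75 Gy. Irradiated and control libraries overlapped at both times (two-sided exact permutation test, p = 0.0159, also 0.0159 adjusted over 3 ratios), and without control library 3135 the difference was -0.57 with an adjusted p of 0.0522 in the exact permutation test.

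Il18, whose product needs cleavage by caspase-1, was near control levels at 2 weeks and higher at 6 weeks, under the fold limit. At 2 weeks, controls held 17.8, 10.5 and 12.6 CPM, 65 Gy lungs 12.8, 13.6 and 12.8 CPM, and 75 Gy lungs 19.4, 13.8 and 10.3 CPM, with overlap. At 6 weeks, controls held 11.3, 10.1 and 10.2 CPM, 65 Gy lungs 14.5 and 17.8 CPM, and 75 Gy lungs 16.1, 17.6 and 16.4 CPM, and the 5 irradiated libraries lay above the 3 controls. The log2 fold change at 6 weeks was 0.62 after 65 Gy (SE 0.22, adjusted p = 0.075) and 0.67 after 75 Gy (SE 0.20, adjusted p = 0.018) by edgeR's quasi-likelihood test. With 1 library left out, the adjusted p for 75 Gy reached 0.0611 in edgeR's test. Il18 overlaps Bco2, at 1.05 to 3.62 CPM, and Tex12, at 0 to 0.0495 CPM.

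Il18bp, which encodes the soluble inhibitor of IL-18 and belongs to a list of related genes, rose in 3 of the 4 comparisons, by 1.21 and 1.90 at 2 weeks and by 1.13 after 75 Gy at 6 weeks on the log2 scale. Without library 3134 the value after 75 Gy at 2 weeks was 0.99, under the fold limit. The rise after 65 Gy at 2 weeks was lost in 14 of 17 fits with 1 library left out, all but those without 3132, 3133 or 3134, and that after 75 Gy at 6 weeks in 5, those without 3135, 3136, 3137, 3142 or 3143. It was at 7.45 to 9.48 CPM in controls, 18.1 to 22.0 CPM after 65 Gy and 15.4, 18.5 and 61.7 CPM after 75 Gy at 2 weeks, and 6.54 to 7.79, 14.8 to 16.2 and 12.7 to 17.5 CPM at 6 weeks. All irradiated libraries lay above the controls. The ratio of Il18bp to Il18 counts exceeded that of controls by 0.94 on the log2 scale, 1.39 at 2 weeks and 0.48 at 6 weeks, with all irradiated libraries higher at each time (two-sided exact permutation test, p = 0.00255, 0.00383 adjusted over 3 ratios). Library 3134 had a ratio of 6, against 0.791 and 1.34 in the other 75 Gy libraries of 2 weeks, and without it the difference was 0.75.

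Nlrp3, the inflammasome sensor, did not pass the test in any comparison. At 2 weeks, controls held 8.95, 8.42 and 8.66 CPM, 65 Gy lungs 8.60, 8.44 and 8.89 CPM, and 75 Gy lungs 6.78, 8.75 and 17.4 CPM. After 6 weeks, controls held 10.9, 8.63 and 7.04 CPM, 65 Gy lungs 7.29 and 8.81 CPM, and 75 Gy lungs 8.61, 7.64 and 8.67 CPM. The groups overlapped at both times, and 3134 was the only library above 11 CPM. The 95% intervals of the log2 fold change were -0.55 to 0.54 after 65 Gy and -0.20 to 0.88 after 75 Gy at 2 weeks, and -0.74 to 0.47 and -0.63 to 0.45 at 6 weeks. Without library 3134, the value of 75 Gy at 2 weeks went from 0.34 to -0.16.

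Casp1, which encodes the protease that matures IL-1β and IL-18, rose after both doses at 6 weeks. At 2 weeks, controls held 15.1, 9.38 and 9.04 CPM, 65 Gy lungs 17.4, 14.7 and 14.8 CPM, and 75 Gy lungs 15.5, 16.0 and 34.1 CPM. At 6 weeks, controls held 9.03, 9.22 and 8.82 CPM, 65 Gy lungs 17.5 and 19.0 CPM, and 75 Gy lungs 18.1, 25.5 and 22.4 CPM. Control library 3126 lay within the 65 Gy libraries of 2 weeks, and in the other comparisons all irradiated libraries lay above the controls. The log2 fold change at 6 weeks was 1.02 after 65 Gy (SE 0.29, adjusted p = 0.0288) and 1.29 after 75 Gy (SE 0.26, adjusted p = 0.00186) in edgeR's quasi-likelihood test. At 2 weeks the same test gave 0.49 after 65 Gy (SE 0.26, adjusted p = 0.268) and 0.97 after 75 Gy (SE 0.26, adjusted p = 0.0155), which passed both limits without library 3126, 3132 or 3133 and was 0.49 without 3134. The rise after 75 Gy at 6 weeks passed in all 17 fits with 1 library left out, and that after 65 Gy was lost without any 1 of the 5 libraries compared. Casp1 has the close relative Casp4, so reads could be shared between them.

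**Figure D3:**
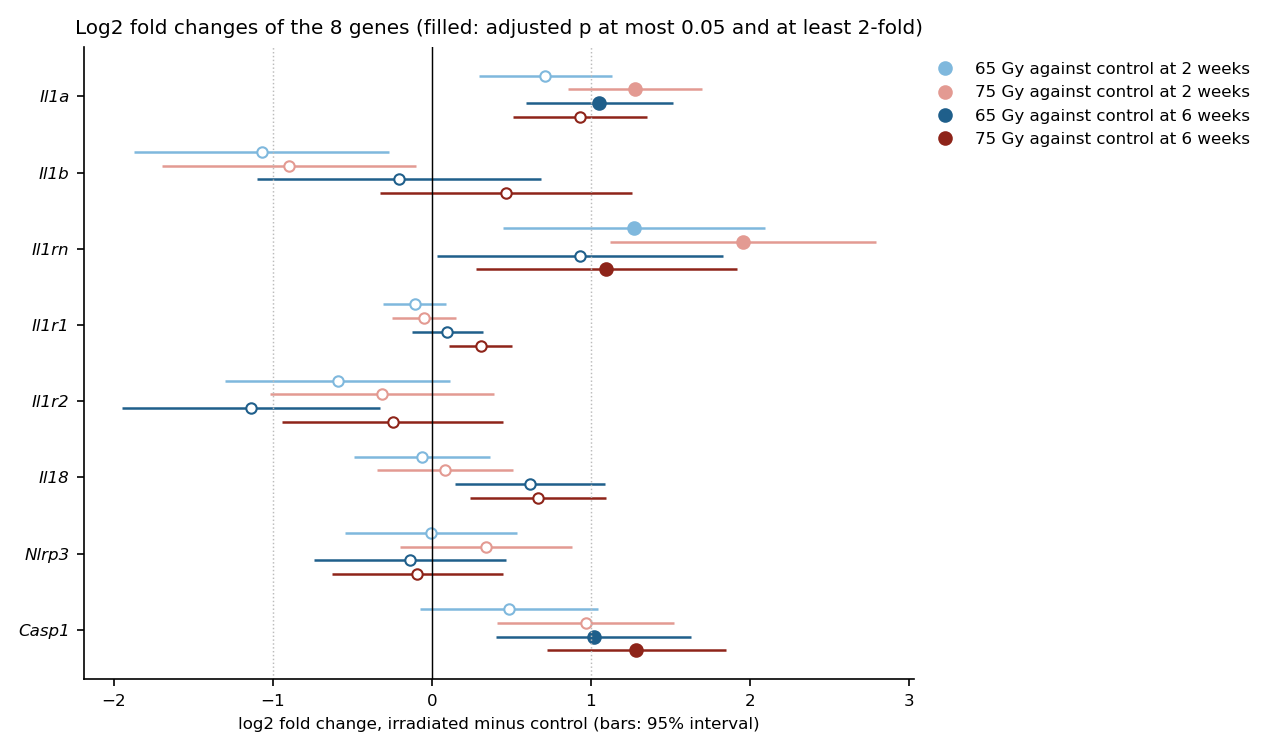
Log2 fold changes of the 8 genes, irradiated minus control, for both doses at 2 and 6 weeks. Bars are 95% intervals and filled points passed both limits. Il1a, Il1rn and Casp1 have all 4 estimates above 0, from 0.49 to 1.96, and Il1r1 and Nlrp3 lie near 0, from -0.14 to 0.34.

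Markers of macrophages and monocytes moved with Il1a, Il1rn and Casp1. The summed level of 10 tissue macrophage markers lay between 399.2 and 474.2 CPM in controls and between 1129 and 2685 CPM in irradiated libraries, and 8, 8, 9 and 9 of the 10 rose in the 4 comparisons. That of 8 monocyte markers lay between 825.1 and 985.1 CPM and between 1752 and 2816 CPM, with 1, 3, 2 and 2 of the 8 risen. Library 3134 was highest in both lists and in Il1a, Il1rn, Nlrp3 and Casp1. The 10 alveolar macrophage markers moved in both directions. After 65 Gy and 75 Gy at 2 weeks, Marco rose and 3 (Ear1, Ear2 and Krt79) and 2 (Ear1 and Krt79) fell. After 6 weeks 3 rose after each dose, Chil3 and Ear2 with Marco or Fabp4, and 0 and 1 (Krt79) fell. Their sum lay between 885.4 and 1179 CPM in irradiated libraries of 2 weeks, within the range of the controls. Only control library 3126, at 1413 CPM, was higher than these, and the other controls held 683.7 to 848.5 CPM. In irradiated libraries of 6 weeks the sum lay between 1630 and 2315 CPM, above all controls, and Chil3 contributed most there (1003 to 1704 CPM). Of 8 dendritic cell markers, 3, 4, 5 and 6 rose. Of the 8 lung endothelium markers, 2 fell after each dose at 2 weeks, none after 65 Gy and 5 after 75 Gy at 6 weeks. At 6 weeks all 8 lay below every control after both doses. After 65 Gy 5 of these passed by adjusted p alone, with a median log2 fold change of -0.80 for the 8. The part of these cells in the levels of Il1a, Il1rn and Casp1 was not tested.

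**Figure D4:**
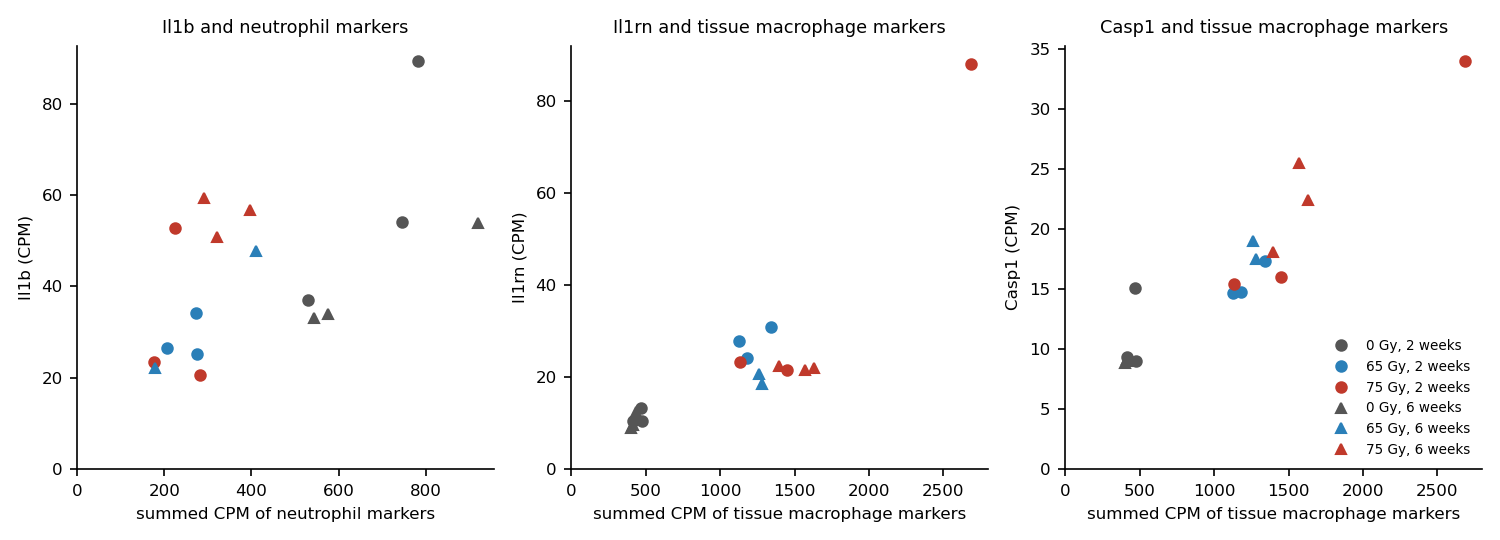
CPM of Il1b against the summed CPM of 12 neutrophil markers, and of Il1rn and Casp1 against that of 10 tissue macrophage markers, 1 point per library, with all axes from 0. Controls lie at 530 CPM or more on the neutrophil axis and at 474.2 CPM or less on the macrophage axes, and all irradiated libraries lie on the other side. The points share their library and its scaling.

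Between the doses, no gene of the whole table was called. In edgeR's quasi-likelihood test, 0 of the 8 genes passed between 75 Gy and 65 Gy at either time, against 0% of all genes, and DESeq2 and edgeR's exact test also called 0. At an unadjusted p under 0.05 there was 1 gene at 2 weeks, Il1a, with a log2 difference of 0.56 (95% interval 0.15 to 0.98), and 1 at 6 weeks, Il1r2, with 0.89 (0.09 to 1.70). The intervals of Il1rn were -0.12 to 1.49 and -0.74 to 1.07, and those of Casp1 -0.07 to 1.03 and -0.35 to 0.89. Among controls, 0 of the 8 passed between 6 and 2 weeks (0.576% of all genes), and Il1a and Il1r1 had an unadjusted p under 0.05. The effect of a dose at 6 weeks was also set against its effect at 2 weeks, where 0 of 8 passed for 65 Gy (0.0136% of all genes) and 0 of 8 for 75 Gy (0.254%), also by DESeq2. At an unadjusted p under 0.05 there was Il18 for 65 Gy, with a difference of 0.68 (95% interval 0.04 to 1.32), and for 75 Gy there were Il1b, with 1.37 (0.24 to 2.49), and Il1r1, with 0.36 (0.07 to 0.64). A member that passed at 1 time and not at the other was therefore not shown to differ between times.

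Levels of different genes were compared as CPM per kilobase of exon. In controls of 2 weeks, Il1b was highest at 44.4 CPM per kilobase, followed by Il18 at 13.2 and Il1r1 at 11.7, which overlapped, and Casp1 at 7.46. Il1rn at 4.22, Il1r2 at 3.28, Il1a at 2.84 and Nlrp3 at 2.14 CPM per kilobase came last, where Il1r2 and Il1a overlapped. After 75 Gy at 6 weeks the level of Il1b was 41.1 CPM per kilobase, that of Casp1 14.7, between Il18 at 16.2 and Il1r1 at 11.5, and that of Il1rn 8.14. Casp1 overlapped with Il18 there. In each of these groups Nlrp3 had the lowest level per kilobase.

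The profile over the 17 libraries was compared between genes by the root mean square difference of log2 CPM, each centred on its own mean. Among the members, Il1r1 and Il18 were closest, at 0.298, followed by Il1r1 and Nlrp3 at 0.32, whose levels varied little. Il1a and Il1rn differed by 0.334 and Il1a and Casp1 by 0.354, against 0.902 for Il1a and Il1b and 1.01 for Il1b and Il1rn. Over all tested genes, those most like Il1rn were Slc11a1, which encodes a metal transporter of phagosomes, and Il18bp, both at 0.194, and Tnfrsf1b, a receptor of tumour necrosis factor, at 0.201. D730005E14Rik, Rilpl2 and Litaf were most like Il1a (0.177 to 0.203), and Mcub, Sirpb1a and Rgs10 most like Casp1 (0.167 to 0.175). The nearest genes to Il1b, Stk17b, D730003I15Rik and the lymphocyte activation marker Cd69, differed by 0.34 to 0.364, against 0.587 for the spread of Il1b itself. Those nearest to Il1r2 were Mir1982, Gm10247 and Cytip, at 0.342 to 0.35. Lpar1, Nit1 and Blmh were nearest to Il1r1 (0.092 to 0.096), Hnmt, Mospd1 and Snap47 to Il18 (0.129 to 0.136), and Samhd1, Cers6 and Fgd3 to Nlrp3 (0.142 to 0.146).

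Of 72 other genes of the pathway in 4 lists, 66 were tested. In the order used above, 15, 18, 12 and 18 were called, which is 22.7%, 27.3%, 18.2% and 27.3% of the 66. Of these, 13, 16, 11 and 17 rose and the others fell. Of all genes tested, 4.35%, 7.74%, 5.28% and 10.4% were called. The share that rose was 3.47%, 5.67%, 4.34% and 7.28%, and the share that fell 0.880%, 2.07%, 0.943% and 3.13%. The counts of each list below stand beside these shares. Without library 3134, 6 of the 18 calls after 75 Gy at 2 weeks were lost, those of Il18bp, Tlr2, Il1f9, Cxcl2, Naip6 and Nlrp1a. The median log2 fold change of the 66 was 0.27, 0.41, 0.29 and 0.42.

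Genes that IL-1 is known to induce moved most. Of 16, 7, 8, 6 and 9 rose in the 4 comparisons and none fell, with median log2 fold changes of 1.27, 1.49, 0.91 and 1.30. Other cytokines and Toll-like receptor ligands induce these genes as well. Saa3, an acute phase protein, was at 0.236 to 1.42 CPM in the 6 controls and at 14.9 to 130.8 CPM in irradiated lungs, with log2 fold changes between 5.90 and 6.53. Lcn2, which binds bacterial siderophores, was at 79.2 to 176.2 CPM in controls and 601.7 to 992.4 CPM in irradiated lungs, with log2 fold changes between 2.79 and 3.12. The monocyte chemokine Ccl2 rose by 4.27 and 4.66 on the log2 scale at 2 weeks and by 2.81 and 3.30 at 6 weeks, and the neutrophil chemokines Cxcl1 and Cxcl5 rose by 2.66 to 3.51 in all 4 comparisons. Il6 rose by 2.11 to 3.70, to 7.56, 12.3 and 15.5 CPM in 75 Gy lungs of 6 weeks. All values of these 6 genes passed edgeR's test, with adjusted p of at most 0.0247. After 65 Gy at 6 weeks, Il6 no longer passed without 3135, 3136, 3137 or 3140, at 1.14 without 3140, and Cxcl5 no longer passed without 3138.

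Of 23 other inflammasome genes, 4, 6, 4 and 5 rose and 1 fell in each comparison. Pycard, which encodes the adaptor ASC that links NLRP3 to caspase-1, rose in all 4, by 1.02 and 1.67 at 2 weeks and 1.17 and 1.26 at 6 weeks on the log2 scale (edgeR adjusted p between 0.000144 and 0.00819). It held 6.36 to 10.4 CPM in controls and 14.4 to 37.1 CPM in irradiated lungs, without overlap. Without library 3127 or 3129 its value after 65 Gy at 2 weeks was lost, at 0.86 without 3127, as was that after 65 Gy at 6 weeks without 3138. Naip1 and Naip2, sensors of bacterial type III secretion systems, rose in all 4 by 1.14 to 1.87, and Nlrp1b rose in 3 of 4. Naip1 after 65 Gy at 6 weeks no longer passed without 3136, 3137, 3138 or 3140. Nlrp1b after 65 Gy at 2 weeks no longer passed without 3136 or any 1 of the 6 libraries compared, after 75 Gy at 2 weeks it was 1.08 without 3134 in place of 1.90, and its rise after 75 Gy at 6 weeks was lost without 3137. Nlrp1a and Naip6, named because they rest on 3134, rose after 75 Gy at 2 weeks by 1.34 and 1.02 and were 0.65 and 0.63 without that library, under the fold limit, so that 4 of the 6 kept their call. The Naip genes are relatives of each other, as are Nlrp1a and Nlrp1b, so reads could be shared between them and their counts are less certain. The extent of such sharing was not measured. Casp4, which encodes the protease of the non-canonical inflammasome, rose after 75 Gy at 6 weeks by 1.28. Nlrp12 fell in all 4 comparisons, by 1.46 to 2.18 on the log2 scale (edgeR adjusted p at most 0.00512), from 3.97 CPM or more in controls to 1.01 to 2.32 CPM. Its fall after 65 Gy at 6 weeks no longer passed without 3138. Gsdmd, the pore-forming substrate of caspase-1, and Nek7, a partner of NLRP3, did not pass the fold limit, with log2 fold changes of -0.02 to 0.25 and -0.20 to -0.03.

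Of 15 other ligands, receptors and inhibitors of the IL-1 family, 9 were tested, of which 1, 1, 1 and 3 rose and 1, 1, 0 and 0 fell. Il33, an alarmin stored in the nucleus, rose at 6 weeks by 1.22 after 65 Gy and 1.37 after 75 Gy (edgeR adjusted p = 0.000961 and 6.91e-05), and at 2 weeks was higher by 0.60 and 0.61 (edgeR adjusted p = 0.0389 and 0.0204), under the fold limit. Its receptor gene Il1rl1 rose after 75 Gy at 6 weeks, by 1.71, to 13.6, 17.7 and 16.3 CPM from 4.59 to 5.24 CPM in controls of that time. Il1f9, which encodes IL-36γ, fell at 2 weeks by 1.52 after 65 Gy and by 1.12 after 75 Gy, where it was -0.85 without library 3134, under the fold limit. Of 18 genes of IL-1 and Toll-like receptor signalling, 1 rose after each dose at 2 weeks and none at 6 weeks, and none fell. At 2 weeks this was near the share of all genes tested that rose, 3.47% after 65 Gy and 5.67% after 75 Gy. The gene was Tlr2, with log2 fold changes of 1.06 and 1.49 at 2 weeks and 0.69 and 0.80 at 6 weeks. Without library 3134, the value after 75 Gy at 2 weeks was 0.81, under the fold limit, and the rise after 65 Gy was lost in 9 of 17 fits with 1 library left out, those without 3127 to 3131, 3136, 3138, 3140 or 3142. The adaptor gene Myd88 differed by 0.30 to 0.45 and stayed under the fold limit. By adjusted p alone, 2 of the 18 signalling genes were lower and 0 higher after 65 Gy at 6 weeks, where 14.7% of all genes passed. After 75 Gy at 6 weeks 8 were lower and 2 higher, where 36.0% of all genes passed.

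**Figure D5:**
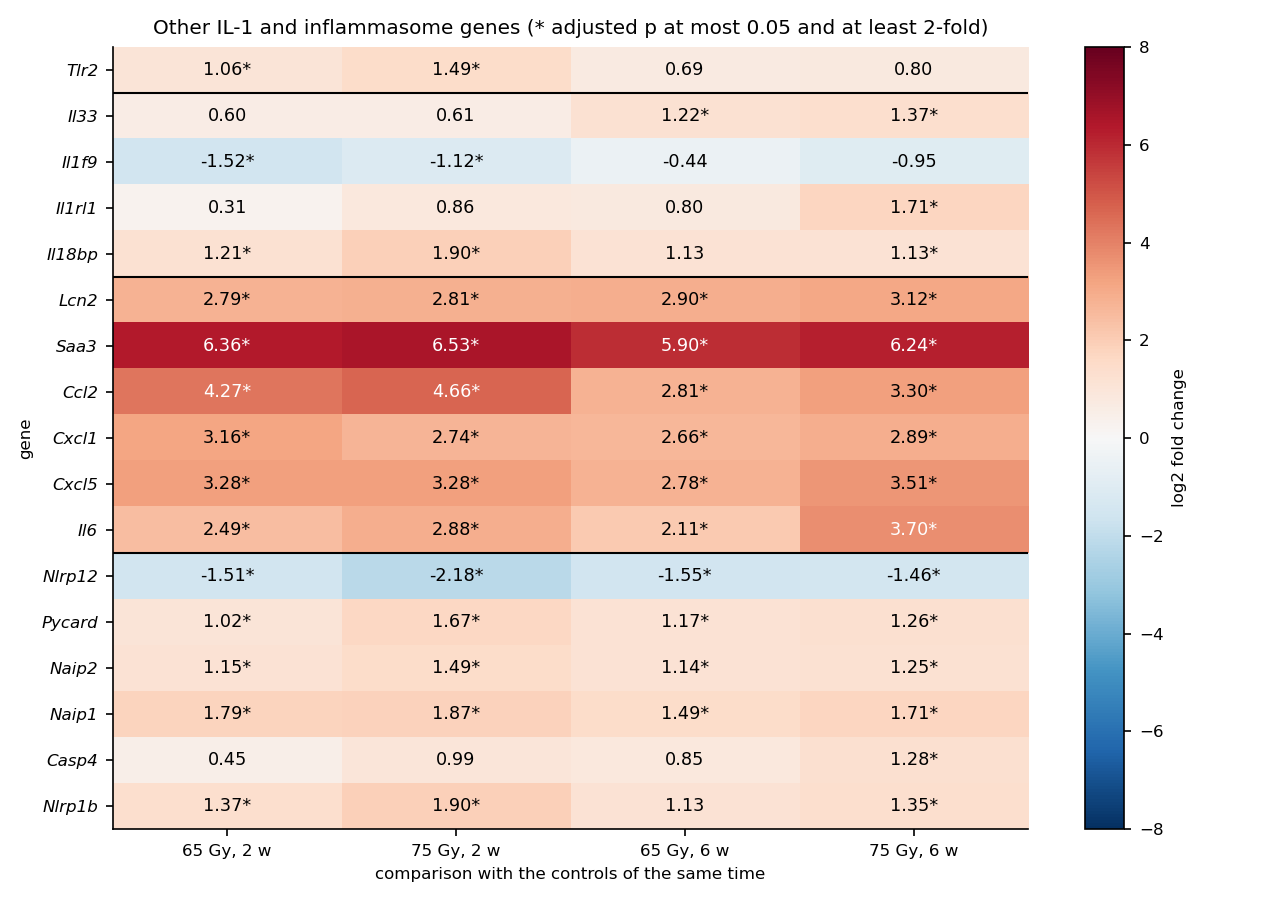
Log2 fold changes, irradiated minus control, of 17 other genes of IL-1 signalling, the IL-1 family, IL-1-induced genes and the inflammasome, set apart by lines. Stars mark values that passed both limits. Saa3 reaches 6.53, Pycard, Naip1 and Naip2 have a star in all 4 columns, and Nlrp12 is lower in all 4, down to -2.18.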

How the data were processed

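Messenger RNA of mouse lung was sequenced in pairs from 17 stranded libraries. The authors used Trimmomatic for trimming, HISAT2 for alignment to GRCm38.p6 (annotation NCBI_108) and StringTie for assembly and expression. They deposited an unnormalized whole-number read count per gene and library, and the step from StringTie to counts and its use of strand are not given in the sources used here.

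Genes were matched by symbol. All 17 libraries entered 1 fit in edgeR 4.0.16 in R 4.3.3, with 1 coefficient per group, the filter filterByExpr (minimum count 10, minimum total 15; 22052 of 45777 genes kept), TMM factors and the quasi-likelihood F test. P-values were adjusted over all genes tested by the method of Benjamini and Hochberg, and genes were called at the limits given above. CPM were scaled with the TMM factors. Ratios used counts plus 0.5 and an exact permutation test within times. Profiles used log2 CPM with a prior count of 2. Exon lengths came from GENCODE M21 and promoters from RefSeq, both of GRCm38, the build of the files, and all 8 genes matched. Methods were tested on simulated data.

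The members, the lists and the tests were chosen with earlier results of these data known. Text names the members, up to 6 genes per pathway list with the smallest p among those called, and the 3 genes nearest to each member. Il1rap, Gsdmd, Nek7, Myd88, overlapping genes and Il18bp beside Il18 were added for their roles, and Naip6, Nlrp1a, Cxcl2 and marker genes after their values were seen. Alternatives were every gene with a count, a filter of 10 counts in each library, RLE and upper-quartile factors, DESeq2 1.42.0, edgeR's exact test, only the groups compared, no fold limit, 2 added counts for ratios, and each library left out. Leaving out libraries 3126, 3134 and 3135 together, and each library in turn for single pathway genes, was chosen after seeing the data. The third 65 Gy library of 6 weeks was not analysed here.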

Additional observations from a re-analysis of the deposited data

How the results depend on the processing

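No paired analysis was possible because libraries are numbered through the series, so that groups share no replicate number.

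No result changed direction among the called values. Without a limit on the fold change, 2 members passed after 65 Gy at 2 weeks and 5 after 75 Gy at 6 weeks, and 36 and 39 pathway genes passed after 75 Gy at 2 and 6 weeks. By edgeR's exact test 2 members passed after 65 Gy at 2 weeks, Il1rn and Il1b. A fit of only the groups compared called 1 member and 11 pathway genes after 75 Gy at 2 weeks. With libraries 3126, 3134 and 3135 left out together, an alternative chosen after seeing the data, 4 members passed after 65 Gy at 6 weeks, Casp1, Il1a, Il1rn and Il1r2. With 1 library left out, members called ranged from 0 to 2 after 65 Gy and 2 to 3 after 75 Gy at 2 weeks, and from 0 to 3 and 1 to 2 at 6 weeks. Pathway genes ranged from 10 to 15, 12 to 22, 8 to 14 and 15 to 19 in the same order. The differences in log2 ratio ranged from 1.53 to 1.76 for Il1rn to Il1b, from -0.75 to -0.54 for Il1r2 to Il1r1, where the value without control library 3135 was -0.571 and missed the threshold, and from 0.75 to 1.04 for Il18bp to Il18. With 3138 or 3140 left out, the lone 65 Gy library of 6 weeks was assumed to vary like the other groups. The causes of these changes were not tested. With 2 or 3 libraries per group, intervals against controls of Il1b, Il1rn, Il1r2, Nlrp3 and Casp1 span more than 1 on the log2 scale.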
